A study of Mus musculus with 24 samples.

Results

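Microglia are the resident macrophages of the brain. They survey the tissue, take up debris and parts of synapses, and depend for their survival on signals through the receptor Csf1r. The genes followed here, which mark these cells, were the chemokine receptor Cx3cr1, the purine receptor P2ry12, the membrane protein Tmem119, the growth factor receptor Csf1r, the complement chains C1qa, C1qb and C1qc, the lipid receptor Trem2 and its signalling adaptor Tyrobp. They were taken by symbol from the count table and are 9 of its 55414 genes. All 9 were among the 14464 genes tested. The membrane receptors Cx3cr1 and P2ry12 and the protein Tmem119 belong to the resting programme of microglia. The C1q chains join into the first component of the classical complement pathway, which tags material for uptake, and Trem2 passes its signal into the cell through Tyrobp.

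The genes were measured by RNA-seq in the visual cortex (V1) of 24 male C57BL/6J mice, with 1 library per mouse and 6 mice per group. The mice were 8 weeks old, lived under a reversed light cycle and were tested in their dark phase, so the control state was darkness. Dark mice received the vehicle, phosphate-buffered saline (PBS), and stayed in the dark, while light mice received PBS and were put into light for 2.5 h. Psilocybin-dark and psilocybin-light mice received 5 mg/kg psilocybin, a serotonergic psychedelic, by intraperitoneal injection and were kept in the dark or put into light for the same time. The groups follow the headings of the study's own count table. The treatment labels of the samples give every library the same drug but the opposite light exposure, and with those labels light against dark takes the other sign under the same drug, while each comparison of groups that differ in drug becomes that of the groups with the opposite exposure. Genes of the early response to neuronal activity, which bear on exposure because light after darkness is known to raise them in visual cortex, summed to 2825 to 8624 normalized counts in mice 1 to 6, which the table heads as dark, and 17587 to 35000 in mice 13 to 18, which it heads as light. Of the 9 genes of that list, 9 rose between these groups. The tissue was a bulk dissection, so a change in these genes can come from fewer or more microglia or from less or more RNA per cell, and these cannot be told apart here.

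Values are given as normalized counts, which are read counts brought to 1 common depth of 16058300, the average library size after TMM scaling. Total counts ran from 13552516 to 17906994 per mouse. Mice 1 and 6 (dark), 12 (psilocybin-dark) and 18 (light) stood apart: the summed level of 10 cerebellar marker genes was 34411 to 103995 in these 4 libraries and 6877 to 14016 in the other 20. The main results are therefore given with all mice and without these 4. Markers of other cells and regions that differed between groups are given after the results of the 9 genes.

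All 9 genes were readily detected. Per kilobase of transcript, which allows genes to be compared with each other, C1qa was highest, with a mean of 696 normalized counts per kb ± 97 (SD, n = 24 mice). C1qc followed at 375.4 ± 57.33, and each was above the next gene in order in 24 of 24 mice. Csf1r (279.8 ± 36.11) and C1qb (278.7 ± 43.19) did not differ beyond their spread over all mice, and their order differed by group: Csf1r was the higher in 5 of 6 dark and 5 of 6 psilocybin-dark mice, but in 2 of 6 light and 1 of 6 psilocybin-light mice. Tyrobp stood at 240.1 ± 36.43 per kb. Tmem119 (198.5 ± 30.23) and Cx3cr1 (196.9 ± 29.37) were likewise not separated over all mice, with Tmem119 the higher in 0 of 6 dark, 3 of 6 light, 4 of 6 psilocybin-dark and 6 of 6 psilocybin-light mice. P2ry12 (184.7 ± 27.56) was below Cx3cr1 in 20 of 24 mice, and Trem2 was lowest at 157.7 ± 26.4, below P2ry12 in 21 of 24.

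The C1q chains lie next to each other on the minus strand of chromosome 4 (GRCm39), with C1qb at 136606009-136613511, C1qc at 136616466-136620376 and C1qa at 136623223-136626161. Trem2 lies on chromosome 17 at 48653429-48661175 (plus strand) and Cx3cr1 on chromosome 9 at 119877749-119898945 (minus strand). In the RefSeq promoter table (GRCm38.p6), 5 of the 9 genes had an entry. The 250 bases before the start site were searched on both strands for GAGGAA, the core of the site bound by PU.1, the lineage factor of macrophages encoded by Spi1. Of 32851 promoter windows, 23.3% held it, and of the 5 genes C1qb, C1qc and Trem2 did, while Cx3cr1 and P2ry12 did not. The windows of C1qb (chr4:136886201-136886450, minus strand), C1qc (chr4:136892915-136893164, minus strand), Trem2 (chr17:48346151-48346400, plus strand) and Cx3cr1 (chr9:120068297-120068546, minus strand) are shown because the first 3 genes rose in light and in psilocybin-light against dark mice and the fourth did not. Capitals mark the match, which reads TTCCTC where it is on the other strand.
C1qb: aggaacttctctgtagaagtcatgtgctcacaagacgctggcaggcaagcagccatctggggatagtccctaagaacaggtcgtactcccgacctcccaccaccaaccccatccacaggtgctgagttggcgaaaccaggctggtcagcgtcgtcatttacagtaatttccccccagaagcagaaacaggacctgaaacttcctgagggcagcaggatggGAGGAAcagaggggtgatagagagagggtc
C1qc: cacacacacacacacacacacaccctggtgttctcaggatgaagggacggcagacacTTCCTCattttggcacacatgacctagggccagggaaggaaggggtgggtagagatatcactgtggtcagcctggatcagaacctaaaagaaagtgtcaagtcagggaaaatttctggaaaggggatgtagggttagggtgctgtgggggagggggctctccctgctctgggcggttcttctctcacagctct
Trem2: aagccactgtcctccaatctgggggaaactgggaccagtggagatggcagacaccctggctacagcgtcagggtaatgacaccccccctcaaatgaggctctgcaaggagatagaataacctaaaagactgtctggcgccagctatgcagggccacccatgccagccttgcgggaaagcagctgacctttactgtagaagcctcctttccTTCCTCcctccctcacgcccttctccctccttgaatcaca
Cx3cr1: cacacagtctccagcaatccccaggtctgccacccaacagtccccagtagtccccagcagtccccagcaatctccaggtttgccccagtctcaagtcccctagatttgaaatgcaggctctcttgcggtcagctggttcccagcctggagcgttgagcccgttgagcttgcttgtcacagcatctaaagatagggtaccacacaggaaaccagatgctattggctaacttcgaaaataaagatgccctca

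The matches begin 30 bases before the start site in C1qb, 193 in C1qc and 40 in Trem2. A match is a string of letters only and was not tested for binding. The windows shown were picked with the rises known, and C1qa and Tyrobp, which also rose in light mice, had no entry. Any link of a match to a rise was not tested. P2ry12 lies on chromosome 3 at 59123682-59170429 (minus strand), Tmem119 on chromosome 5 at 113931781-113938577 (minus strand), and Tyrobp on chromosome 7 at 30113170-30117010 (plus strand). The strand setting of the counting was not given in the sources used here, and some exons are shared with genes on the other strand: 1461 bases of Csf1r with Hmgxb3, 433 of Trem2 with Gm65654, 294 of P2ry12 with Med12l, 247 of C1qc and 61 of C1qb with Gm69251, and 78 of Cx3cr1 with Gm33858. Reads in these stretches cannot be assigned to either gene with certainty. C1qa, Tmem119 and Tyrobp share no exon with another gene.

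**Figure D1:**
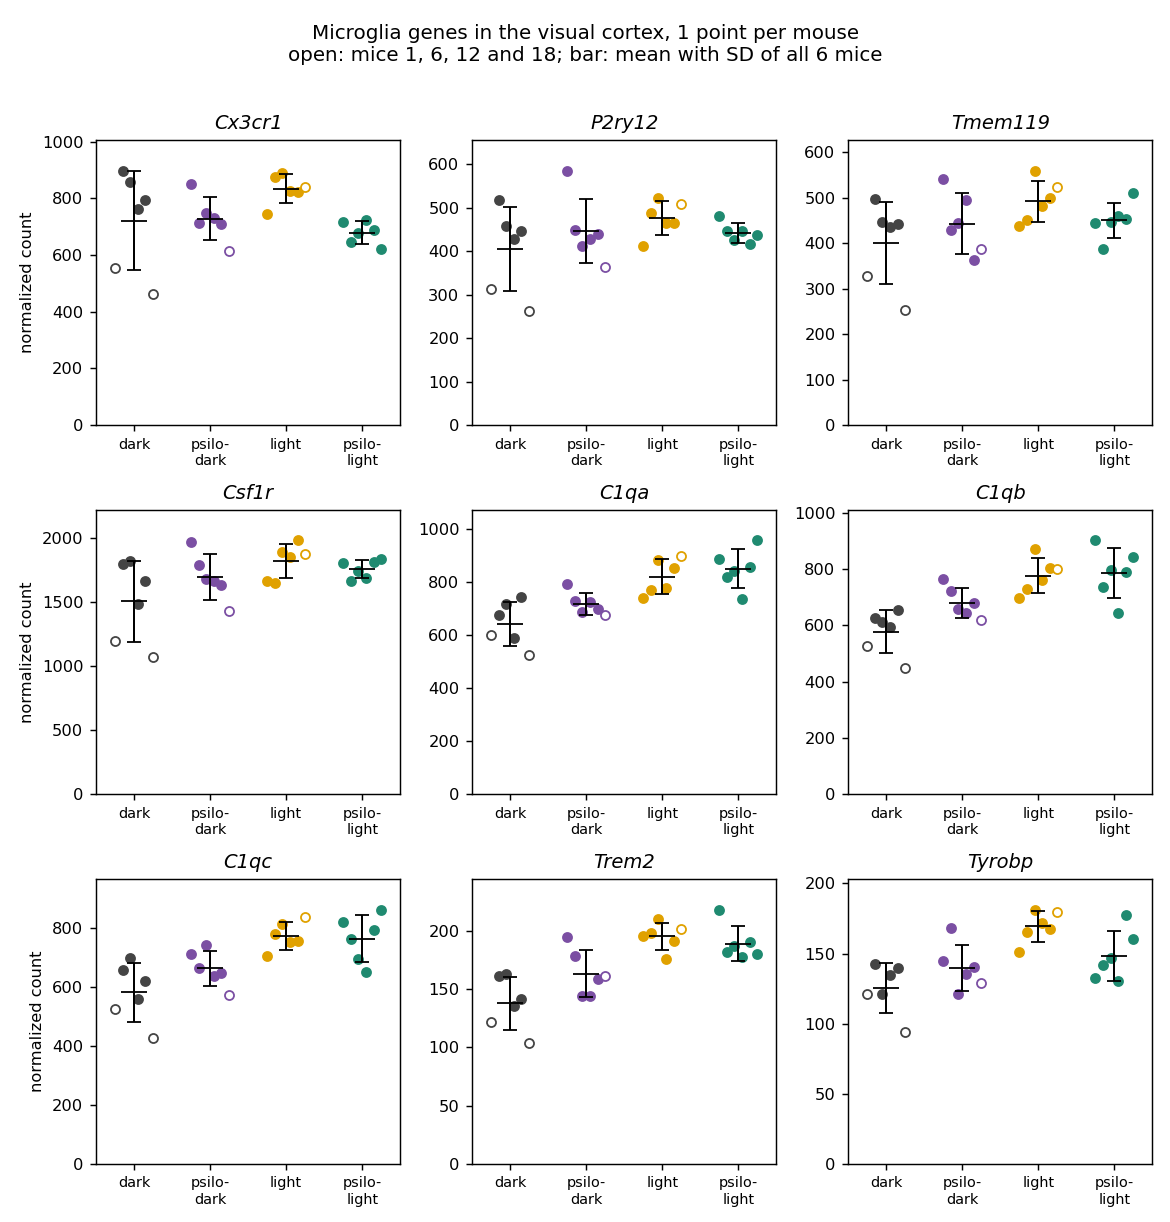
Normalized counts of the 9 microglia genes (y axis, starting at 0) in each of the 24 mice, by group (x axis). Points are mice, open points are mice 1, 6, 12 and 18, and bars are the mean and SD of 6 mice. Dark mouse 6 lies lowest of all 24 mice for all 9 genes. Every gene but Cx3cr1 has higher means in both groups put into light than in the dark group.

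The genes of the C1q complex, Trem2 and Tyrobp rose in light mice, and the resting markers Cx3cr1, P2ry12 and Tmem119 did not pass the test. In light against dark mice, 6 of the 9 genes rose and none fell (edgeR quasi-likelihood test, adjusted p under 0.05), where 15.4% of all genes tested rose and 31.9% changed in either direction. The median log2 fold change was 0.35 over the 9 genes and -0.01 over all genes. Without mice 1, 6, 12 and 18, 5 of 9 rose, beside 21.1% of all genes, with a median of 0.24.

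C1qb had 447.8, 604.0 and 653.3 normalized counts (lowest, median and highest of 6) in dark mice and 697.6, 780.1 and 872.8 in light mice. The groups did not overlap, and the lowest dark value was that of mouse 6. C1qb was 34.7% higher in light mice (log2 fold change 0.43, SE 0.09, edgeR adjusted p = 0.000592). C1qc ran from 424.9 through a median of 590.1 to 699.0 in dark mice and from 703.6 through 768.0 to 838.2 in light mice, again without overlap, and was 33.2% higher (log2 0.41, SE 0.09, edgeR adjusted p = 0.00181). C1qa, the chain with the highest level, ran from 525.4 through 637.8 to 742.6 in dark and from 740.0 through 815.2 to 896.4 in light mice. Its highest dark mouse, 5, had slightly more than its lowest light mouse, 13, and its rise was 27.8% (log2 0.35, SE 0.08, edgeR adjusted p = 0.00118).

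Trem2 had the largest estimate of the 9. Its normalized counts were 104.2, 138.5 and 162.9 (lowest, median, highest) in dark mice and 175.9, 197.2 and 210.1 in light mice, so each light mouse was above each dark mouse. The difference was 42.0% (log2 0.51, SE 0.10, edgeR adjusted p = 0.000369). Its adaptor Tyrobp, which also serves other receptors of myeloid cells, ran from 94.12 through 127.8 to 142.9 in dark mice and from 151.4 through 169.5 to 181.4 in light mice. It too did not overlap and was 35.1% higher (log2 0.43, SE 0.10, edgeR adjusted p = 0.00167). Of all genes tested, 5.59% were higher in light mice with no overlap, and of the 9 genes these were C1qb, C1qc, Trem2 and Tyrobp.

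Csf1r, Tmem119, P2ry12 and Cx3cr1 overlapped between light and dark mice. Csf1r ran from 1071 through 1573 to 1819 in dark mice and from 1644 through 1862 to 1981 in light mice. Its rise of 20.8% (log2 0.27, SE 0.10) passed the test narrowly, with an edgeR adjusted p = 0.0448, and without the 4 mice it was 6.91% (edgeR adjusted p = 0.270). Tmem119 (23.0%, edgeR adjusted p = 0.0691), P2ry12 (18.0%, 0.150) and Cx3cr1 (15.7%, 0.174) did not pass. Without the 4 mice these differences were 6.88% for Tmem119, 1.91% for P2ry12 and 0.665% for Cx3cr1. The C1q genes, Trem2 and Tyrobp kept rises of 18.2% (C1qa), 24.4% (C1qb), 20.2% (C1qc), 29.5% (Trem2) and 24.5% (Tyrobp), each with an edgeR adjusted p between 0.00329 and 0.0138.

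With all mice, values of P2ry12, Tmem119 and Csf1r overlapped between all 4 groups. Those of Cx3cr1 did too, except between light and psilocybin-light mice. Mean normalized counts of P2ry12 were 404.1 ± 96.62 (SD, n = 6) in dark, 446.5 ± 74.09 in psilocybin-dark, 476.7 ± 38.87 in light and 441.7 ± 22.54 in psilocybin-light mice. Those of Tmem119 were 400.6 ± 90.89, 443.5 ± 66.26, 492.7 ± 45.01 and 450.5 ± 39.06, and those of Csf1r 1504 ± 314.0, 1693 ± 179.3, 1817 ± 133.7 and 1757 ± 71.59, in the same order. The dark group had the widest spread for all 4 of these genes, Cx3cr1 included (720.8 ± 174.4, 727.4 ± 75.63, 833.3 ± 51.39 and 678.4 ± 40.25). Without mice 1 and 6 the dark mean of P2ry12 was 462.4 ± 39.56 and that of Tmem119 455.5 ± 28.27 (n = 4). Light mice without mouse 18 had 470.5 ± 40.04 and 486.5 ± 47.38 (n = 5), within 1 SD of the other group for P2ry12 and overlapping it for Tmem119.

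**Figure D2:**
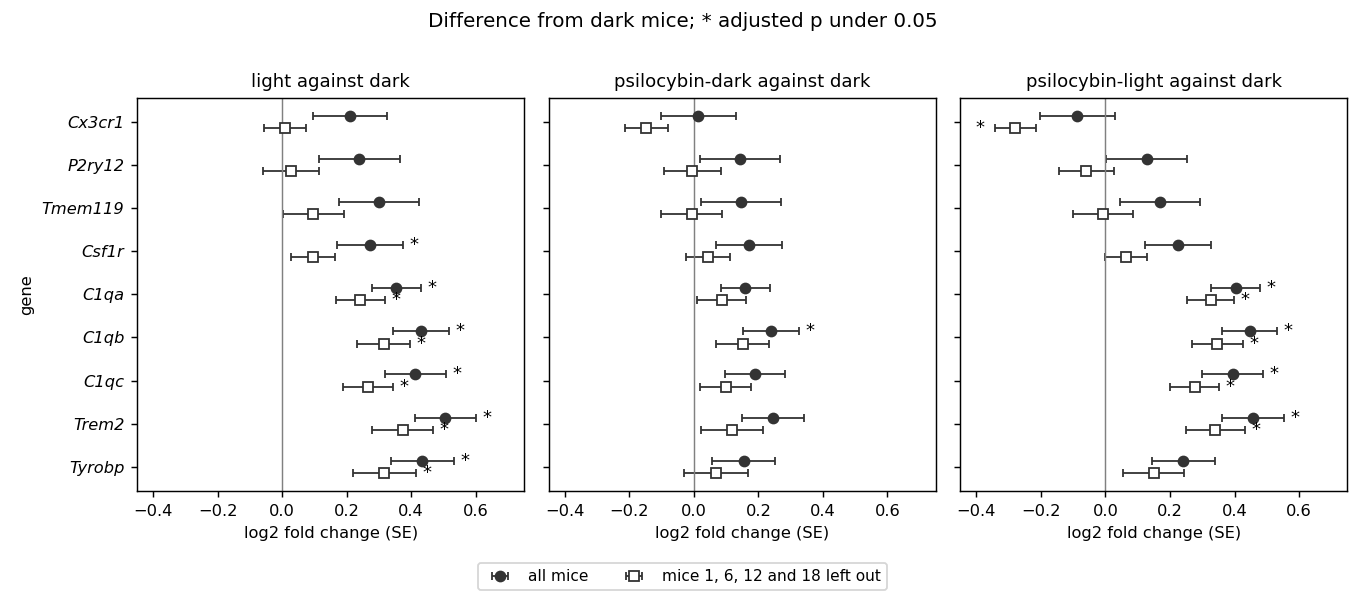
Log2 fold change from dark mice with its SE (x axis) for each microglia gene (y axis) in 3 comparisons, with all mice (filled circles) and without mice 1, 6, 12 and 18 (open squares); an asterisk marks an adjusted p under 0.05. Leaving out the 4 mice moves Cx3cr1, P2ry12, Tmem119 and Csf1r to near 0 in light against dark mice, while the C1q genes, Trem2 and Tyrobp stay between 0.24 and 0.37.

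In psilocybin-dark mice the 9 genes lay above dark mice by amounts that mostly did not pass. C1qb alone passed the test, beside 11.9% of all genes that rose and 24.7% that changed in this comparison. It ran from 619.6 through 669.3 to 765.4 in psilocybin-dark mice, overlapping the dark range given above, and was 18.1% higher (log2 0.24, SE 0.09, edgeR adjusted p = 0.0436). Trem2, with 143.8, 159.8 and 194.9 normalized counts (lowest, median, highest), was 18.5% higher (edgeR adjusted p = 0.0657). C1qc was 14.0% higher (0.149), C1qa 11.7% (0.132), Tyrobp 11.3% (0.266) and Csf1r 12.6% (0.237), none past the threshold of the edgeR test. Cx3cr1 differed by 0.925%, with an edgeR adjusted p = 0.950. All 9 estimates were above 0 with all mice. Without the 4 mice, 0 of 9 genes passed, where 38.3% of all genes did and 18.3% rose. Estimates were then above 0 for 6 genes, with C1qb 11.1% higher (edgeR adjusted p = 0.153), and below 0 for Cx3cr1 (-9.66%), P2ry12 (-0.34%) and Tmem119 (-0.479%). Cx3cr1 alone of the 9 had an unadjusted p under 0.05 there (edgeR adjusted p = 0.0852), as had 6602 of 14135 genes. DESeq2 with all mice called 1 of 9, beside 3840 genes over all.

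In psilocybin-light mice the C1q genes and Trem2 rose as well, and Cx3cr1 had its lowest group mean. Against dark mice, 4 of 9 genes rose, C1qa, C1qb, C1qc and Trem2, beside 17.4% of all genes that rose and 38.4% that changed. C1qa ran from 734.9 through 848.1 to 956.4 and was 32.3% higher than in dark mice (log2 0.40, SE 0.08, edgeR adjusted p = 0.000249). C1qb ran from 645.1 through 794.9 to 903.1 and was 36.3% higher (log2 0.45, SE 0.09, edgeR adjusted p = 0.000289). C1qc ran from 650.6 through 777.9 to 862.0 and was 31.4% higher (log2 0.39, SE 0.09, edgeR adjusted p = 0.002). Psilocybin-light mouse 22 was the lowest of its group for all 3 chains. C1qa and C1qb overlapped the dark range through this mouse alone. C1qc overlapped it also through psilocybin-light mouse 21 (693.4), which was below dark mouse 3 (699.0).

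Trem2 ran from 177.4 through 184.3 to 218.5 in psilocybin-light mice, above every dark mouse, and was 37.3% higher (log2 0.46, SE 0.10, edgeR adjusted p = 0.000683). Among the 9 it alone did not overlap here, beside 8.28% of all genes that were higher without overlap. Tyrobp, in contrast, ran from 130.3 through 144.3 to 177.6 and was 18.2% higher with an edgeR adjusted p = 0.0543. Csf1r was 16.8% higher (0.0863), Tmem119 12.5% (0.294) and P2ry12 9.31% (0.443). Cx3cr1 had the only estimate below 0, at -5.85% (edgeR adjusted p = 0.587).

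Without mice 1, 6, 12 and 18, the same 4 genes rose in psilocybin-light against dark mice, beside 24.0% of all genes, and Cx3cr1 fell, beside 24.2% of all genes that fell. Cx3cr1, the receptor of the neuronal chemokine Cx3cl1, ran from 761.6 through 826.0 to 897.0 in the 4 remaining dark mice and from 619.8 through 681.6 to 725.1 in the 6 psilocybin-light mice. These ranges did not overlap. Without the 4 mice 31.1% of all genes tested did not overlap in this comparison, in either direction. The difference was -17.6% (log2 -0.28, SE 0.06, edgeR adjusted p = 0.00108), while C1qa was 25.4% higher (edgeR adjusted p = 0.000974), C1qb 27.2% (0.00113), C1qc 21.2% (0.00466) and Trem2 26.6% (0.00433). With all mice, dark mice 1 and 6 had 552.9 and 461.5 normalized counts of Cx3cr1, below every psilocybin-light mouse. Their high cerebellar marker level moves with these low values, and its part in the result was not tested. With the mean of the cerebellar list as a covariate and all mice in the fit, Cx3cr1 had a log2 fold change of -0.26 (edgeR adjusted p = 0.051).

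Between psilocybin-light and light mice, both put into light, 0 of 9 genes passed the edgeR test, beside 0.608% of all genes. DESeq2 also called 0 of 9, and its share of all genes is not reported here. Cx3cr1 alone of the 9 had an unadjusted p under 0.05, as had 1402 of 14464 genes. Cx3cr1 ran from 744.0 through 833.7 to 890.0 in light mice and was lower in each of the 6 psilocybin-light mice. The difference was -18.6% (log2 -0.30, SE 0.12, edgeR adjusted p = 0.350), and 0.933% of all genes were lower without overlap in this comparison. With the 4 mice left out the difference was -18.1% (SE 0.06 on the log2 scale) and passed the test (edgeR adjusted p = 0.0115), beside 1.92% of all genes that fell. The other 8 genes differed between these groups by -12.5% (Tyrobp) to 3.53% (C1qa).

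Within psilocybin-treated mice, light against dark gave 0 of 9 genes past the test, beside 6.38% of all genes. Unadjusted p-values were under 0.05 for 4 of 9, and for 2873 of 14464 genes. DESeq2 called 1 of 9, C1qa, and its count over all genes is not reported here. C1qa was 18.4% higher in psilocybin-light than in psilocybin-dark mice (log2 0.24, SE 0.08, edgeR adjusted p = 0.0567), and Trem2, C1qb and C1qc were 15.8%, 15.4% and 15.3% higher. C1qa passed without the 4 mice (18.1% higher, edgeR adjusted p = 0.0198), beside 8.41% of all genes that rose. Cx3cr1 differed by -6.72% with all mice, and P2ry12, Tmem119 and Csf1r by -1.02% to 3.77%. The mitochondrial share of counts moved with this comparison, from 2.973% to 3.51% in psilocybin-dark and from 3.447% to 4.959% in psilocybin-light mice. Astrocyte markers summed to 83123 to 97009 in the former and 65890 to 76303 in the latter, without overlap, and the part of either in these differences was not tested.

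Psilocybin-dark and light mice, the groups given only 1 of the treatments, had 0 of 9 genes past the edgeR test, beside 0.456% of all genes. DESeq2 called 0 of 9, beside 405 genes over all. All 9 estimates were below 0, from -6.43% (P2ry12) to -17.6% (Tyrobp). The unadjusted p was under 0.05 for 5 of 9, and for 2076 of 14464 genes. Without the 4 mice 0 of 9 passed, beside 6.03% of all genes. The unadjusted p was then under 0.05 for 6 of 9, and for 3248 of 14135 genes. The interaction is the psilocybin-light difference from dark mice less the sum of the light and the psilocybin differences. It gave 0 of 9 genes past the edgeR test, beside 8.75% of all genes. The unadjusted p was under 0.05 for 2 of 9, and for 3586 of 14464 genes. DESeq2 called 0 of 9, beside 1665 genes over all. All 9 estimates were below 0, so the joint difference was smaller than the sum on the log2 scale, most for Tyrobp (-0.35, SE 0.14, edgeR adjusted p = 0.116) and Cx3cr1 (-0.31, SE 0.16, edgeR adjusted p = 0.247). Without the 4 mice all 9 were again below 0, with -0.24 for Tyrobp, and 0 of 9 passed, beside 27.0% of all genes. The unadjusted p was under 0.05 for 0 of 9 as well, and for 5406 of 14135 genes. The 3 comparisons with dark mice, and the interaction, share the same 6 dark mice.

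A ratio within a mouse does not depend on how the library is scaled. The summed counts of C1qa, C1qb and C1qc were 1.210 ± 0.16 (SD, n = 6) times those of Cx3cr1, P2ry12 and Tmem119 in dark mice, 1.282 ± 0.08 in psilocybin-dark, 1.316 ± 0.04 in light and 1.529 ± 0.15 in psilocybin-light mice. In psilocybin-light mice 5 of 6 had a ratio above every other mouse, from 1.507 to 1.699, and mouse 22 had 1.245. Dark mice 1 and 6 had the highest dark ratios, 1.385 and 1.430, and the other 4 dark mice ran from 1.025 to 1.198. Leaving out the 4 mice gave a dark ratio of 1.112 ± 0.08 (n = 4), below each of the light mice. The ratio of Cx3cr1 to Csf1r counts was 0.476 ± 0.03 in dark and 0.460 ± 0.04 in light mice, and 0.430 ± 0.02 in psilocybin-dark and 0.387 ± 0.03 in psilocybin-light mice. These ratios were formed with the results of the single genes known and are given as descriptions, with no test.

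**Figure D3:**
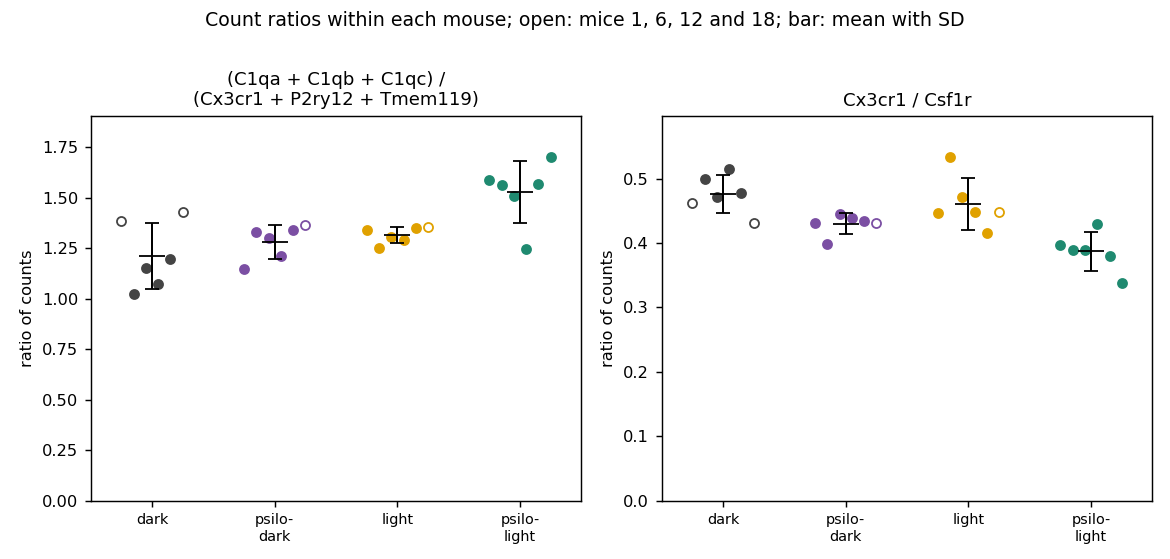
Ratio of summed C1q counts to those of Cx3cr1, P2ry12 and Tmem119 (left) and of Cx3cr1 to Csf1r counts (right), per mouse and group, with y axes from 0. Points are mice, open points are mice 1, 6, 12 and 18, and bars are the mean and SD of 6 mice; psilocybin-light mice reach the highest C1q ratio, 1.699, and the lowest Cx3cr1 ratio, 0.3375.

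The proportions of the C1q chains to each other were similar in the 4 groups. C1qa made up 34.55% to 35.72% of the C1q counts in the group means, C1qb 32.11% to 33.06% and C1qc 31.83% to 32.66%, with SDs of 0.70 to 1.70 percentage points. The ratio of Trem2 to Tyrobp counts was 1.102 ± 0.13 in dark, 1.157 ± 0.09 in light, 1.173 ± 0.11 in psilocybin-dark and 1.293 ± 0.20 in psilocybin-light mice. Its highest value was 1.647, in psilocybin-light mouse 19, and the groups overlapped.

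The 9 genes moved together from mouse to mouse. After the group means were taken out, the 36 pairs had correlations of 0.523 to 0.941 over 24 mice, with a median of 0.753. The closest pair was Cx3cr1 with P2ry12, and C1qa with C1qb reached 0.878. Without the 4 mice that stood apart the range was -0.0509 to 0.82 and the median 0.487. All pairs share library, depth and dissection. The genes most like the mean of the 9 over the 24 mice, out of 13232 ranked, included Clu (r = 0.939), Selplg (0.934), Laptm5 (0.920), Cdk10 (0.912), Cst3 (0.905), Vsir (0.900), Ppp1r16a (0.896), Begain (0.891) and Oaf (0.887). With group means taken out they were Clu (0.923), Selplg (0.909), Cst3 (0.905), Hapln1 (0.896), Bc1 (0.895), Laptm5 (0.894), Rpl41 (0.889), Mfge8 (0.887), Inpp5d (0.884) and Hpgds (0.873). Clu, Selplg, Cst3 and Laptm5 stood in both.

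Some other genes of microglia rose in light mice with all mice in the fit, and fewer did without the 4 mice that stood apart. Lists of related genes are described by how many of their tested members passed, and a few genes stand in 2 lists. With all mice, 15.4%, 11.9% and 17.4% of all genes rose in light, psilocybin-dark and psilocybin-light against dark mice, and without the 4 mice 21.1%, 18.3% and 24.0%. Of 38 other microglial genes tested, 12 (31.6%) rose and 0 fell in light against dark mice. Among them were Cd37 (log2 0.59, edgeR adjusted p = 0.00277) and the lysosomal protease Ctss (0.32, edgeR adjusted p = 0.00593). The median over the 38 was 0.26, below the 0.35 of the 9. In psilocybin-dark mice 7 (18.4%) rose and Bin2 fell, and in psilocybin-light mice 11 (28.9%) rose and Sall1 and Dock8 fell. Those that rose with both treatments included Ctss (log2 0.46, edgeR adjusted p = 0.000234) and the Fc receptor Fcgr3 (0.50, 0.000726). In the fit without the 4 mice 7 were higher for light (18.4%), 4 of 38 for psilocybin-dark and 5 for psilocybin-light mice (13.2%), each a smaller share than that of all genes. Lower there were Ptprc in all 3 comparisons, Bin2 and Dock8 in both psilocybin groups, and Sall1 and Tgfbr1 in psilocybin-light mice.

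With the mean of the other microglial genes as a covariate, chosen after the levels of the 9 were seen, the C1q genes, Trem2 and Tyrobp still rose in light against dark mice, with log2 fold changes of 0.19 (C1qa), 0.24 (C1qb), 0.22 (C1qc), 0.33 (Trem2) and 0.27 (Tyrobp) and edgeR adjusted p-values of 0.0027 to 0.027. Csf1r, P2ry12, Tmem119 and Cx3cr1 then lay between -0.05 and 0.03. In psilocybin-light against dark mice Cx3cr1 had a log2 fold change of -0.24 (edgeR adjusted p = 0.0017) in the same fit.

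Among the ligands of Csf1r and Cx3cr1 and the factors of the lineage, 6 of 16 genes (37.5%) rose in light against dark mice, 4 in psilocybin-dark and 7 (43.8%) in psilocybin-light mice, with Sall1 lower in the last. Cx3cl1, the neuronal ligand of Cx3cr1, was 9887 ± 3765 normalized counts in dark mice, 17160 ± 2085 in light, 17848 ± 3574 in psilocybin-dark and 18187 ± 1309 in psilocybin-light mice. Its log2 fold changes from dark were 0.80, 0.85 and 0.88 (edgeR adjusted p = 0.00401, 0.00329 and 0.0014), and 0.55, 0.63 and 0.58 without the 4 mice. The Csf1r ligands did not pass: Csf1 had log2 fold changes of 0.12, 0.08 and 0.09, and Il34 of 0.16, 0.16 and 0.18, in light, psilocybin-dark and psilocybin-light mice, with edgeR adjusted p-values of 0.412 to 0.717. Spi1, which encodes PU.1, had 50.2 normalized counts in dark and 53.0 in light mice (log2 0.08, edgeR adjusted p = 0.728), and log2 fold changes of -0.03 and 0.17 in psilocybin-dark and psilocybin-light mice. Irf8, another factor of the lineage, rose in light (log2 0.51, edgeR adjusted p = 0.0113) and psilocybin-light mice (0.42, 0.0319). Cebpa, a myeloid factor, rose in all 3 (0.42, 0.22 and 0.65) and was the only gene of this list that rose in psilocybin-light against psilocybin-dark mice (0.43, edgeR adjusted p = 0.0018).

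Of 19 other complement genes tested, 4 rose in light against dark mice, C1ra, Cfp, Clu and Sirpa, a share of 21.1% beside 15.4% of all genes. C1ra, a protease that binds C1q, was 13.5 ± 3.65 normalized counts in dark, 34.0 ± 5.21 in light, 28.8 ± 3.49 in psilocybin-dark and 39.3 ± 8.56 in psilocybin-light mice. Its log2 fold changes were 1.32, 1.08 and 1.53, with edgeR adjusted p-values of 1.28e-05, 0.000192 and 1.46e-06, and they were 1.30, 1.01 and 1.49 without the 4 mice. C1ra, Sirpa and C3ar1 rose in psilocybin-dark mice, and C1ra, Sirpa and Itgb2 rose in psilocybin-light mice, where 2 genes fell. These were Calr, which encodes the chaperone calreticulin (log2 -0.29, edgeR adjusted p = 0.000249) and Cd47 (-0.47, 0.00142), a cell-surface protein known as a signal against uptake. Cd47 was also lower in psilocybin-light than in psilocybin-dark mice (-0.65, edgeR adjusted p = 0.00131), and Calr was lower than in light mice (-0.24, 0.046).

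Of 17 genes of Trem2 and Tyrobp signalling, 5 rose in light against dark mice (Pik3r1, Clec5a, Clu, Pik3cd and Inpp5d) and Adam10 fell. Thus 35.3% changed, beside 31.9% of all genes. Once the 4 mice were left out Pik3r1 alone rose, and Adam10 and Lcp2 fell. In psilocybin-dark mice Pik3r1, Cd33 and Inpp5d rose and Adam10, Lcp2 and Apoe fell, and in psilocybin-light mice Pik3r1 and Cd33 rose and Adam10 and Adam17 fell. Adam10, a protease that cuts Trem2 from the cell surface, was 1971 normalized counts in dark and 1635 in light mice (log2 -0.27, edgeR adjusted p = 8.83e-05), and its log2 fold change was -0.15 in psilocybin-dark and -0.29 in psilocybin-light mice, past the threshold in both. Pik3r1, a subunit of phosphoinositide 3-kinase that many cells express, rose in all 3 (0.50, 0.51 and 0.48). Of 15 genes of purine sensing, Adora1, Adora2a and P2ry13 rose and Itpr2 and P2ry1 fell in light mice, and Adora1 rose and P2ry1 fell in both psilocybin groups, with Itpr2 lower in psilocybin-light mice. P2ry13, a close relative of P2ry12, rose with light (log2 0.37, edgeR adjusted p = 0.0356; 0.17, 0.205 without the 4 mice).

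Genes of activated microglia gave a mixed account. Of 21 such genes tested, 5 rose in light and in psilocybin-light mice (Ctsd, B2m, Ank, Fth1 and Ctsb), a share of 23.8% beside 15.4% and 17.4% of all genes, and Ank and B2m rose in psilocybin-dark mice, where Apoe fell. Log2 fold changes in light and psilocybin-light mice were modest, for Ctsd (log2 0.17 in both), Ank (0.20 and 0.23) and B2m (0.39 and 0.44), and other cells express these genes too. Timp2 fell in all 3 comparisons and had log2 fold changes of -0.73 in light and -0.74 in psilocybin-dark mice (edgeR adjusted p = 0.00395 and 0.00506). Of 15 genes of inflammatory signalling, 5 (33.3%) rose in light, 2 (13.3%) in psilocybin-dark and 4 (26.7%) in psilocybin-light mice, and 0 fell. Ptgs2, which cortical neurons also express, had the largest of these rises (log2 1.35, 1.63 and 1.33), followed by Socs3 (0.75, 0.63 and 0.80), and Tlr7 rose in light and psilocybin-light mice (0.56 and 0.57). In the interferon response 2 of 17 genes rose in each of the 3 comparisons, Xaf1 and Ifit2, and this share of 11.8% was near or below that of all genes in each. Without the 4 mice the interferon counts were 5, 9 and 7 higher (29.4%, 52.9% and 41.2%, beside 21.1%, 18.3% and 24.0% of all genes), with Ifi27 lower in psilocybin-dark mice.

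Markers of other macrophages and of blood varied widely between mice of a group. The 14 border macrophage and MHC class II genes summed to 632.5 to 1010 normalized counts in dark, 642.1 to 1777 in light, 563.2 to 1319 in psilocybin-dark and 624.2 to 1252 in psilocybin-light mice. The 15 genes of blood and other leukocytes summed to 372.8 to 2085, 606.4 to 2787, 396.0 to 4724 and 639.2 to 6309 in the same order, and the highest of these was near the summed level of the 9 microglia genes, 3645 to 6819 over all mice. The edgeR test called 0 of 9 and 0 of 7 tested genes of these lists in each of the 3 comparisons with dark mice. No marker of either list was at 0 in all mice. Their part in the differences of the 9 genes was not tested.

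Hippocampal markers moved with the dark group. Their sum was 4535 to 10229 in dark mice and 3245 to 4155 in the other 18, without overlap, so that hippocampal tissue and the treatments cannot be told apart for the comparisons with dark mice. In the mean log2 level of the list (centred), dark mouse 6 (-0.0415) lay below psilocybin-dark mouse 12 (0.141). The other dark mice lay above every mouse of the other groups. With the mean of this list as a covariate, 2 of 9 genes stayed past the threshold in light against dark mice, Trem2 (log2 0.63, edgeR adjusted p = 0.021) and Tyrobp (0.60, 0.026), and the C1q genes had log2 fold changes of 0.38 to 0.51 with adjusted p-values of 0.056 to 0.076. Oligodendrocyte markers summed to 21135 to 141577 in dark mice, with the highest list mean in mouse 1 and the lowest in mice 2, 3 and 4, and to 44382 to 102570 in the others. Leaving out the 4 mice, 13 of 13 oligodendrocyte genes rose in light against dark mice. With their mean as a covariate and all mice in the fit, all 9 microglia genes passed in light against dark mice. The count over all genes in that fit is not reported here. Astrocyte markers summed to 65890 to 76303 in psilocybin-light mice and 83598 to 91793 in dark mice, and 6 of 13 fell and 1 rose between these groups, while the C1q genes and Trem2 rose. Choroid plexus markers summed to 1441 to 4547 in dark and 3701 to 6787 in light mice, and without the 4 mice to 1441 to 2960 and 3873 to 6787, with 3976 to 4734 in psilocybin-dark and 3950 to 5972 in psilocybin-light mice. Fibroblast and meningeal markers lay the other way, at 2661 to 6296 in dark and 1614 to 5305 in light mice, and at 3520 to 6296 and 1614 to 2233 without the 4 mice. The summed pan-neuronal markers had means of 159814 in dark and 179087 in light mice, or 166543 and 182735 without the 4, with overlapping ranges, and 4 of 13 rose and 3 fell. Endothelial and mural markers summed to 7533 to 9188 in dark and 8656 to 12167 in light mice, and to 7533 to 8558 and 8656 to 10371 without the 4. The choroid plexus, fibroblast and endothelial lists thus separated dark from light mice without overlap once the 4 were left out. So did the oligodendrocyte list, at 21135 to 52586 in dark and 53899 to 87933 in light mice. Of all genes tested, 31.3% did not overlap in that comparison without the 4, so such a separation was common. The part of these lists in the differences of the 9 genes was not tested.

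**Figure D4:**
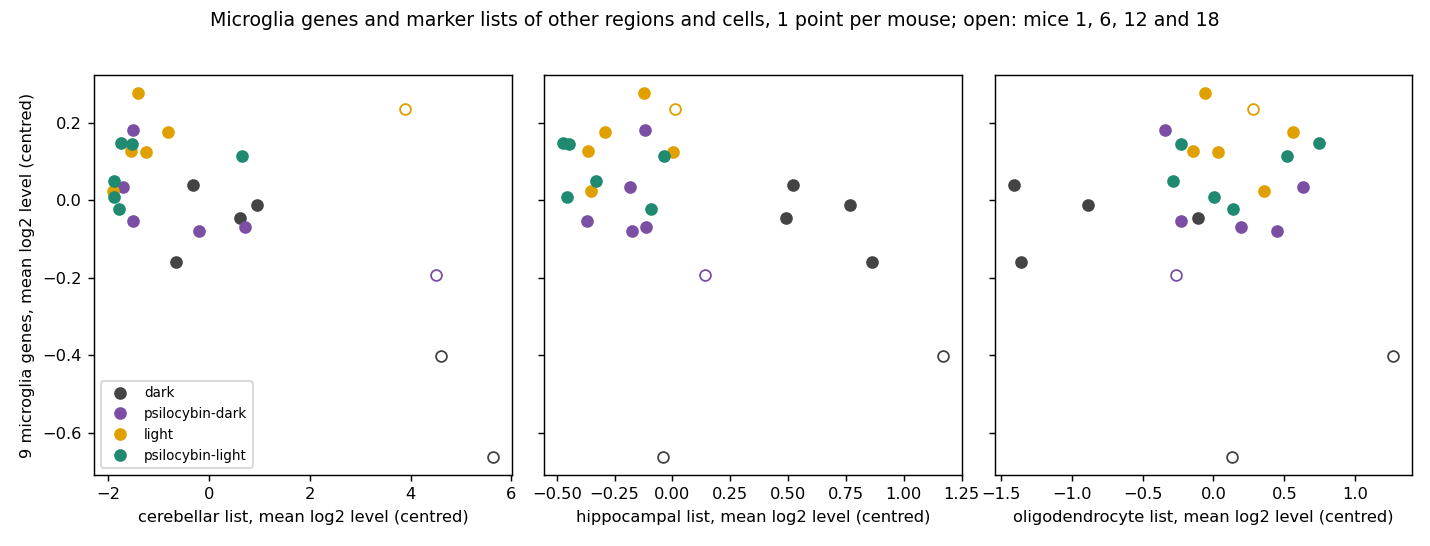
Mean log2 level of the 9 microglia genes (y axis, each gene centred on its mean over 24 mice) against that of the cerebellar, hippocampal and oligodendrocyte lists (x axes), 1 point per mouse and open points for mice 1, 6, 12 and 18. Dark mice 1 and 6 lie lowest for the microglia genes, at -0.403 and -0.662, with high cerebellar levels, while light mouse 18 has a high cerebellar level, 3.89, and a microglia level of 0.237.

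Without dark mice 1 and 6 the narrow call of Csf1r was lost, with a log2 fold change of 0.11 in light against dark mice (edgeR adjusted p = 0.233). Of the other libraries with a high cerebellar level, psilocybin-dark mouse 12 was the lowest of its group for Cx3cr1, P2ry12, Csf1r and the C1q genes, and light mouse 18 was above its group mean for all 9. When dark mice 2 to 5 were left out instead, mice 1 and 6 alone stood for darkness. All 9 genes then rose in each of the 3 comparisons with dark mice. In psilocybin-dark against dark mice that fit called 5915 genes over all, beside 3575 in the main fit. Its counts over all genes for the other comparisons with dark mice are not reported here. When each mouse was left out in turn, C1qa, C1qb, C1qc, Trem2 and Tyrobp kept an edgeR adjusted p under 0.05 for light against dark mice in 24 of 24 fits, and Csf1r did in 10 of 24. For psilocybin-light against dark mice C1qa, C1qb, C1qc and Trem2 passed in 24 of 24. C1qb in psilocybin-dark mice passed in 13 of 24, with an edgeR adjusted p of 0.0239 to 0.101, and turned on single mice.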

How the data were processed

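RNA from 24 mice, 6 per group, was sequenced as poly-A selected libraries. The authors trimmed the reads with cutadapt, mapped them with STAR to GRCm39 and summed reads over Ensembl genes (htseq-count). Their deposited table holds these raw counts without normalization. The submitters' processing notes list mm10 as the build, and only gene identifiers were used from the files. Versions of these tools and the strand setting were not given in the sources used here. Positions and names came from GENCODE vM39 (GRCm39), which names 14427 of the 14464 tested genes. Promoter sequences came from RefSeq (GRCm38.p6).

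Libraries were grouped by number as in the headings of the study's count table (1 to 6 dark, 7 to 12 psilocybin-dark, 13 to 18 light, 19 to 24 psilocybin-light). The sample labels reverse the light exposure of all 24, which was run as an alternative. Each library is taken as 1 mouse; the counts of mice within a group differed by more than sampling noise in all 60 pairs.

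Genes with a count of at least 30 in some library were kept and fitted together in edgeR 4.0.16 (R 4.3.3, limma 3.58.1), with TMM scaling and 1 term per group. Tests were quasi-likelihood F tests, two-sided, adjusted by Benjamini-Hochberg over all 14464 genes, with a threshold of 0.05. The SE is the log2 fold change divided by the square root of F. Log2 levels used a prior count of 2. Levels per kb used the length of the canonical transcript. The fit was tested on simulated data. Alternatives were DESeq2 1.42.0 with the study's parameters, other scalings and filters, only the compared groups, 1 surrogate variable from sva 3.50.0, list means as covariates, an adjusted p under 0.01, the sample labels' exposure and libraries left out.

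All 9 members are named throughout, with values for at most 4 genes per list and comparison, Csf1, Il34, Cx3cl1, Spi1 and Irf8, and the 10 genes with the largest correlation with the members' mean among those with a mean count of at least 30. Some list genes are not reported here by name. Names given to complete small counts were chosen after their values were seen. The members and the 20 gene lists were chosen with earlier results of these data known; 1 list symbol was not found in the table. Python 3.11.15 and matplotlib 3.10.9 made the figures.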

Additional observations from a re-analysis of the deposited data

Results flagged for a closer look

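Among the 36 groups formed by 9 genes and 4 groups of 6 mice, 1 had a mouse far from the rest by Dixon's ratio (critical value 0.625 for 6 mice). Psilocybin-light mouse 19 had 218.5 normalized counts of Trem2, with a ratio of 0.6885, while the other 5 mice of its group ran from 177.4 to 190.2. Chance alone flags about 1 in 20 such groups.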

How the results depend on the processing

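The count of genes past the threshold in light against dark mice was 6 of 9 and lay between 5 and 9 under all alternatives except the hippocampal list mean as a covariate, where it was 2, and with the sample labels the 6 were lower. For psilocybin-light against dark mice it was 4, and 1 with the hippocampal covariate, 7 with the oligodendrocyte covariate, 9 without dark mice 2 to 5 and 0 with the sample labels' light exposure. Without mice 1, 6, 12 and 18, 4 genes were higher and Cx3cr1 was lower. Tyrobp passed in 5 of 15 alternative fits and Cx3cr1 in 4 of 15, so some settings not named here also gave more than 4. For psilocybin-dark against dark mice the count was 1. It was 0 at an adjusted p under 0.01, with total count scaling, with no filter, with only the compared groups in the fit, with the hippocampal, cerebellar or other microglial mean as a covariate, with the sample labels, without dark mice 1 and 6 and without mice 1, 6, 12 and 18; it was 2 with the oligodendrocyte covariate and 9 without dark mice 2 to 5. For psilocybin-light against light mice it was 0, and 1 with only the compared groups, with 1 surrogate variable, without mice 1 and 6 and without mice 1, 6, 12 and 18 (Cx3cr1 each time), and 1 with the sample labels (C1qb). For psilocybin-light against psilocybin-dark mice it was 0, and 1 (C1qa) with DESeq2, total count scaling, only the compared groups, 1 surrogate variable, the oligodendrocyte covariate, without dark mice 2 to 5 and without mice 1, 6, 12 and 18, 2 without dark mice 1 and 6, and 3 with the other microglial mean. For psilocybin-dark against light mice it was 0, and 4 with the sample labels. The interaction had 0, 1 with 1 surrogate variable (Cx3cr1) and 8 without dark mice 2 to 5. The cause of these changes was not tested. The cerebellar and other microglial covariates were added after the data were seen.

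Leaving out each mouse in turn gave 5 to 8 genes for light, 0 to 2 for psilocybin-dark and 4 to 6 for psilocybin-light against dark mice, 0 to 1 for psilocybin-light against psilocybin-dark mice, and 0 for the others. For psilocybin-dark mice the count was 0 without any 1 of mice 1, 4, 6, 7, 8, 10, 11, 16, 21 or 23 and 2 without mouse 2, 3 or 5. For psilocybin-light against psilocybin-dark mice it was 1 without mouse 1, 5, 6, 7 or 22.

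With the sample labels' light exposure, the log2 fold changes of light against dark mice became -0.273 (Csf1r), -0.353 (C1qa), -0.43 (C1qb), -0.413 (C1qc), -0.506 (Trem2) and -0.434 (Tyrobp), and those of psilocybin-light against dark mice -0.194 (C1qa), -0.19 (C1qb), -0.224 (C1qc) and -0.26 (Trem2). Of 2448 values of single genes under the alternatives, these 10 reversed, 47 fell below the threshold, 82 came to pass it and 2309 kept both direction and side, or had no call and changed sign (100). The interaction with only the compared groups is the fit already given. No paired analysis was possible because the groups share no replicate numbers.

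Counts over all genes moved more. Light against dark called 4611 genes, 880 with the hippocampal covariate and 3073 with only the compared groups. The other comparisons with dark called 3575 (psilocybin-dark; 6 with the hippocampal covariate, 5915 without dark mice 2 to 5) and 5551 (psilocybin-light; 971 with that covariate). Psilocybin-light against light called 88 (22 with no filter, 331 without the 4 mice), against psilocybin-dark 923 (463 and 2434), psilocybin-dark against light 66 (0 and 852), and the interaction 1266 (0 with the hippocampal covariate, 4016 without dark mice 2 to 5). The lowest level of the 9 genes was 94.12 normalized counts, in a library of at least 13552516 reads.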
